A study of Mus musculus with 6 samples.

Results

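The nuclear receptors described here are 30 transcription factor genes, taken by name from a fixed list and matched through their Ensembl identifiers, out of 55471 genes in the deposited count tables. The list holds receptors for thyroid hormone, retinoids, fatty acids, sterols, bile acids and xenobiotics, their RXR partners, and orphan receptors. The glucocorticoid receptor and the REV-ERB genes were left out of it. Livers came from male C57BL/6J mice labelled WT (wild type). There were 3 mice fasted for 4 h and 3 fasted for 16 h, and each liver gave 1 library. The labels give no age, no time of day at death and no feeding state before the fast. All 30 genes had enough counts to be tested.

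Nuclear receptors are proteins that bind DNA and, in most cases, a small lipophilic ligand, and they switch target genes on or off together with coactivators and corepressors. Many class members pair with a retinoid X receptor (RXR), while HNF4 alpha binds as a pair with itself and ERR alpha acts without a known hormone. In liver they are known for adjusting fatty acid oxidation, bile acid synthesis, sterol handling and drug metabolism to nutritional state. Their activity depends on ligand, protein level and partners, none of which RNA sequencing measures.

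Of the 30 receptor genes, 5 rose after the longer fast and none fell by edgeR's quasi-likelihood test with Benjamini-Hochberg adjustment over 13812 genes. The 5 were Nr1i3, Ppara, Hnf4a, Esrra and Nr2c2, with rises of 1.42-fold to 1.94-fold. The share that passed, 16.7%, was near the 18.7% of all genes tested, with 9.18% of all genes higher and 9.51% lower. At an unadjusted p under 0.05 there were 6 higher and 3 lower receptors, and DESeq2 and limma-voom also called 5 higher and 0 lower. No receptor changed by 2-fold or more, and 22 of the 30 intervals (95%) lay between a halving and a doubling. The median log2 fold change was 0.13 over the receptors and -0.03 over all genes, and the median size of change was 0.22 and 0.27. All 16 h livers were above all 4 h livers for 7 receptors and below them for 4. Over all genes such a separation was found for 39.4%, higher for 19.7% and lower for 19.7%.

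**Figure D1:**
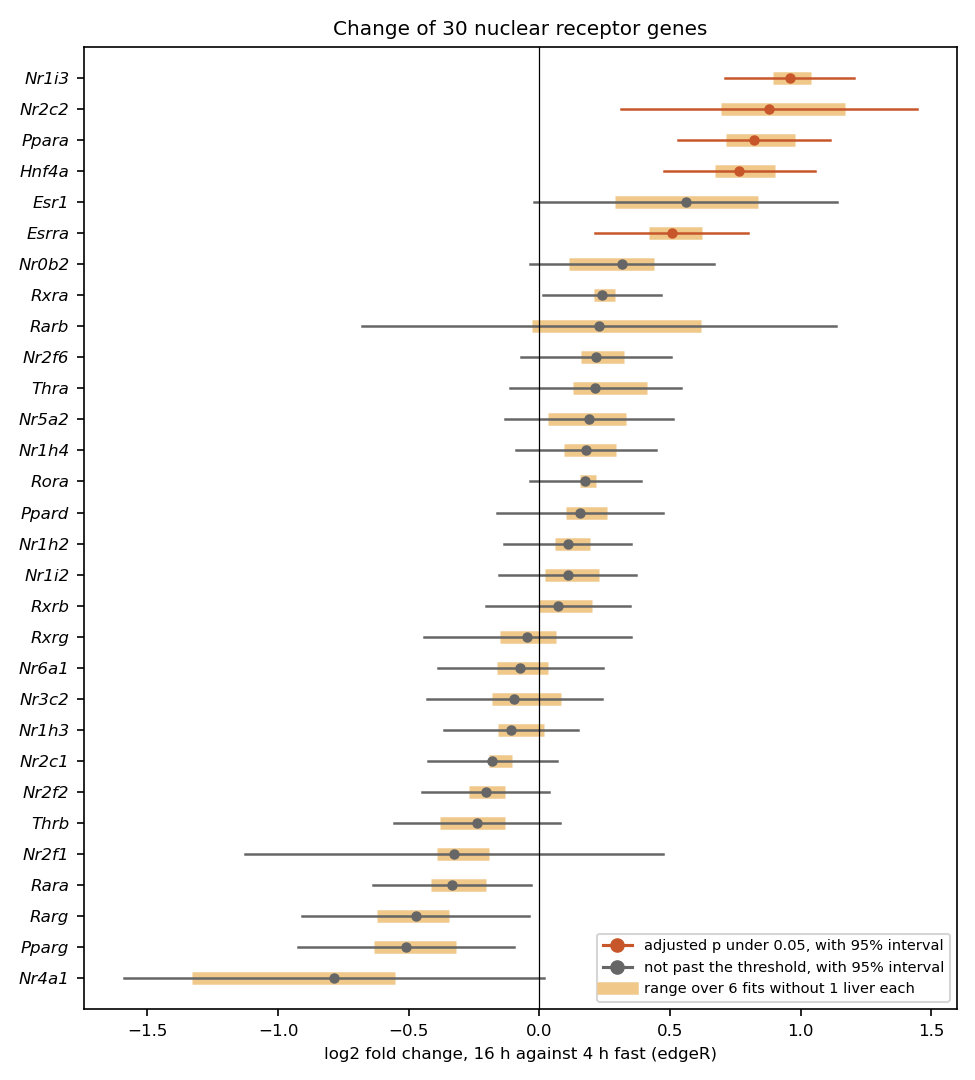
Log2 fold change of each receptor gene, 16 h against 4 h fast, from edgeR with 3 livers per group: points are estimates, thin lines 95% intervals, and wide bands the range when each liver in turn is left out. Nr1i3, Ppara and Hnf4a keep intervals and bands well above 0, and the bands of Rarb, Rxrg, Nr6a1, Nr3c2 and Nr1h3 cross 0.

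Upstream sequences are shown for the 5 receptors that rose, so that the starts of genes that moved the same way can be compared. They come from RefSeq on GRCm38.p6, in which 29 of the 30 genes had an entry and Thra had none. Each runs 5′ to 3′ within the 250 bases before the start and is cut to its longest stretch outside annotated exons. Capitals mark the E-box and GC box matches that lie inside the printed stretches, in Nr1i3, Esrra and Nr2c2. Hnf4a has 2 starts, and the counts per gene do not separate them.

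Esrra (chr19:6921814-6922058, minus strand): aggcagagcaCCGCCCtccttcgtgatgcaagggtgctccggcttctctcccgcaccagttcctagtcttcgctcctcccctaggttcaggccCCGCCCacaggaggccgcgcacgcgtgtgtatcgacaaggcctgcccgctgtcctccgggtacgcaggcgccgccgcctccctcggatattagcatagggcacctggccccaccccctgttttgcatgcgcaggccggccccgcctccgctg
Hnf4a start 1 (chr2:163506607-163506807, plus strand): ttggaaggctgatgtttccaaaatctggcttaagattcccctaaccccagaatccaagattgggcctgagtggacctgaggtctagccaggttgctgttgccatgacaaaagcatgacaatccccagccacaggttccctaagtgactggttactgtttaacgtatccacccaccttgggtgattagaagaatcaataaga
Hnf4a start 2 (chr2:163546943-163547154, plus strand): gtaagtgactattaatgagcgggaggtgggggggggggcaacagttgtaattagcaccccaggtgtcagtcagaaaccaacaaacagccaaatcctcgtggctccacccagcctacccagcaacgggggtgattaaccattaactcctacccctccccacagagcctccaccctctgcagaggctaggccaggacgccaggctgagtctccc
Nr1i3 (chr1:171213720-171213969, plus strand): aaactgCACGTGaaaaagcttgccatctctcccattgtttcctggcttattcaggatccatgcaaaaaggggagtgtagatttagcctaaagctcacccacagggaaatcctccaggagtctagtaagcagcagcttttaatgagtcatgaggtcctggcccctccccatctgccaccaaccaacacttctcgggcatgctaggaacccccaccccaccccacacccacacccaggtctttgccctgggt
Nr2c2 (chr6:92092183-92092432, plus strand): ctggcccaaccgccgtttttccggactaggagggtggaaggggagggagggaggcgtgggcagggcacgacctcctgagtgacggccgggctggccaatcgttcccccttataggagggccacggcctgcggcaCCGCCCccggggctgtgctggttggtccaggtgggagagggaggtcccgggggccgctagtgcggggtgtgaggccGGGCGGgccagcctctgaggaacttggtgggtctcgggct
Ppara (chr15:85735714-85735775, plus strand): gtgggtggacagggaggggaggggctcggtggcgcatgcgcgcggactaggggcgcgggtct

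The motifs searched on both strands were the receptor core AGGTCA, direct repeats of that core spaced by 1 or 4 bases, the ERR element TCAAGGTCA, which contains the core, the E-box CACGTG, the D-box TTATGNAA and the GC box GGGCGG. In the full 250 bases, no promoter of the 5 rising genes held the core, which was in 9 of 45 promoters of the receptor list (20.0%) and in 14.0% of all 32851 promoters. Rxra and Nr6a1 each had 2 core matches in 1 promoter. No receptor promoter held either direct repeat, the ERR element or the D-box, which were in 0.0335%, 0.0152%, 0.387% and 3.07% of all promoters. Nr1i3 had an E-box 244 bases before its start, a motif in 8.89% of receptor promoters and 6.02% of all. GC boxes were found upstream of Esrra and Nr2c2, and also of Ppara (216 and 101 bases before the start) and Hnf4a start 1 (44 bases before), where they lie outside the printed stretches. The GC box was in 44.4% of receptor promoters against 32.7% of all. Windows of 1 gene can overlap and share matches, as for Rara, and by gene the GC box was in 16 of 29. Median GC content was 59.6% over receptor promoters and 52.4% over all. These matches describe letters only, and a missing match says nothing about binding.

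The libraries held 15173653 to 26572532 counts assigned to genes, of which the 30 receptors took 0.2% to 0.205% after 4 h and 0.247% to 0.274% after 16 h. Hepatocyte markers summed to between 92200 and 106000 CPM (counts scaled to library size) in the 6 libraries, with 3 of the 8 higher, 1 lower and 4 not past the test. Replicate 3 of the 4 h fast stood apart: its 10 lung markers summed to 243 CPM against 35 to 49.9 CPM elsewhere, and its 6 neutrophil markers to 15.6 CPM against 1.81 to 3.31 CPM. In that library the 4068 genes with over 6000 exon bases lay 0.40 log2 units lower, relative to its group mates, than the 2443 genes under 2000 bases. The same difference was between -0.09 and 0.23 in the other 5. Results are therefore given without this library wherever that changes a call. In bulk tissue, fewer cells of a type and less RNA per cell cannot be told apart.

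Levels, scaled to exon length as CPM per kilobase, ran from 172.7 for Hnf4a down to 0.126 for Nr2f1 as means over the 6 livers. Hnf4a, the receptor that maintains hepatocyte identity, was the highest at 128 ± 5.21 after 4 h and 217 ± 34.8 CPM per kilobase after 16 h (SD, n = 3). Rxra (75.0 ± 1.69 and 88.5 ± 4.75) and the bile acid receptor gene Nr1h4 (70.5 ± 10.4 and 79.8 ± 2.87) came next and overlapped each other after 4 h. Then came Nr1i2, Nr1h3, Ppara and Nr0b2, at means of 41.0, 37.0, 24.1 and 23.2 CPM per kilobase over the 6 livers. Rarb (0.165) and Nr2f1 (0.126) were the lowest, with 6 to 30 and 9 to 18 counts per library. Such counts leave their changes wide open, with 95% intervals from -0.68 to 1.13 and from -1.12 to 0.47.

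**Figure D2:**
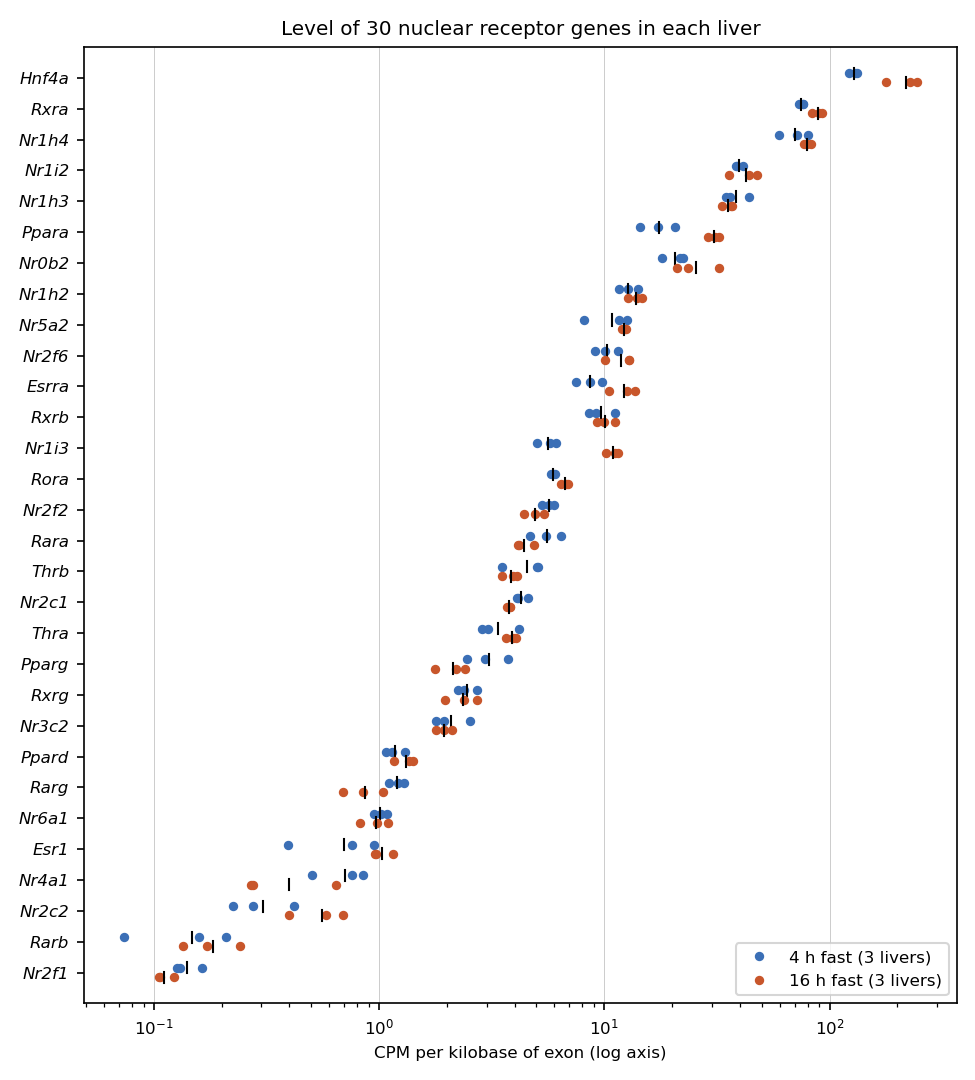
Level of each receptor gene in every liver as CPM per kilobase of exon, on a log axis; dots are livers and short black lines group means. Hnf4a lies above the rest in both groups, and the 4 h and 16 h dots separate fully for Ppara, Nr1i3 and Esrra but not for Nr2c2.

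Exon length needs care for 4 receptors in which at least 15% of exon bases overlap another gene, since reads there may go to neither. For Nr1i3 the overlap is 74.9%, with Tomm40l on the opposite strand, for Nr2f6 54.4% with Ocel1, for Rarb 38.4% and for Nr2c2 31.2%. If no read in the overlap was counted, the 1110 bases outside it would put Nr1i3 at 32.9 in place of 8.27 CPM per kilobase. That would move it from rank 13 to rank 6. Nr2f6 would move from 11.1 to 24.3 CPM per kilobase. The strand setting of the counts is not given, so the higher values hold only if no such read was counted. Reads lying partly in the overlap were not allowed for. The length outside the overlap was chosen after the data were seen.

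Among the fatty acid receptors, Ppara rose 1.77-fold, while Ppard and Pparg did not pass. Ppara (ENSMUSG00000022383, chromosome 15, 85734983 to 85802819, GRCm38) encodes PPAR alpha, the fatty acid sensor that drives oxidation and ketogenesis in fasting. It was at 78.9, 66.2 and 55.3 CPM in 4 h replicates 1, 2 and 3 and at 124, 119 and 111 CPM in those of the 16 h fast. Every 16 h liver lay above every 4 h liver, and the change was 0.82 ± 0.13 on the log2 scale (SE, edgeR adjusted p = 0.00164). It passed without any one of the 6 livers, at 0.71 to 0.98.

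Ppard, which encodes a widely expressed fatty acid receptor, was near 8.82 ± 0.882 and 9.87 ± 0.986 CPM (0.15 ± 0.15, 95% interval -0.16 to 0.47). Pparg, known for fat storage, was at 7.28, 8.76 and 11.1 CPM after 4 h and at 6.49, 5.24 and 7.12 CPM after 16 h. Its groups did not overlap, with all 16 h values lower, but it did not pass (-0.51 ± 0.19, edgeR adjusted p = 0.0811). The highest of its values was in the library with lung transcripts, and without it the change was -0.32. Macrophage markers summed to 155, 117 and 206 CPM in the 4 h livers and 109 to 130 CPM in the 16 h livers. Their part in the value of Pparg was not tested.

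Of the 6 genes of the HNF4 alpha, TR and COUP-TF group, Hnf4a and Nr2c2 rose and 4 did not pass. Hnf4a (ENSMUSG00000017950, chromosome 2, 163506808 to 163572910) rose 1.70-fold, from 589.8, 625 and 639 CPM to 861, 1185 and 1104 CPM. The 4 h livers were close together, and the lowest 16 h liver stood well above them (0.77 ± 0.13, edgeR adjusted p = 0.00239). It passed without any one of the 6 livers, at 0.67 to 0.90. As the most abundant receptor transcript by counts it made up 67.6% of the rise in summed receptor CPM, from 2005 ± 46.2 to 2645 ± 217. Without Hnf4a the sum went from 1388 ± 24.1 to 1595 ± 51.8 CPM, and the groups still did not overlap.

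Nr2c2 (ENSMUSG00000005893, chromosome 6, 92091390 to 92174294) encodes the orphan receptor TR4. It had 4.12, 6.25 and 3.34 CPM after 4 h and 10.4, 8.68 and 5.97 CPM after 16 h. The lowest 16 h liver lay below the highest 4 h liver, so the groups overlapped although the test was passed (0.88 ± 0.26, edgeR adjusted p = 0.0361). It no longer passed when 4 h replicate 1 or 3, or 16 h replicate 1 or 2, was left out (adjusted p by edgeR of 0.101, 0.0868, 0.134 and 0.106), and with plain library totals (0.0523). Mrps25, which overlaps it on the opposite strand, fell by 0.75 (edgeR adjusted p = 0.0153). Its relative Nr2c1, which encodes TR2, was 18.8, 21.2 and 19.0 CPM after 4 h and 17.5, 17.5 and 17.0 CPM after 16 h, lower in all 16 h livers without passing (-0.18 ± 0.11).

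The COUP-TF genes, which encode orphan repressors of HNF4-type sites, did not pass. Nr2f2 was at 48.8 ± 2.93 and 42.3 ± 4.38 CPM (-0.21 ± 0.11, edgeR adjusted p = 0.222). Nr2f6 was at 30.6 ± 3.61 and 35.5 ± 4.77 CPM (0.21 ± 0.13). For the scarce Nr2f1 the values were 0.644 to 0.836 CPM after 4 h and 0.535 to 0.623 CPM after 16 h.

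Of the xenobiotic receptor genes, Nr1i3 rose and Nr1i2 did not pass. Nr1i3 (ENSMUSG00000005677, chromosome 1, 171213970 to 171220701) encodes CAR, an inducer of drug-metabolizing enzymes. It showed the largest change of the list, from 26.9, 25.3 and 22.1 CPM to 50.7, 49.3 and 44.7 CPM. No 16 h liver came near a 4 h liver, and the change was 0.96 ± 0.11 (1.94-fold, edgeR adjusted p = 2.39e-04). Leaving out single livers gave 0.89 to 1.04 and kept the call each time. Tomm40l, the antisense neighbour that covers most of its exon bases, rose by 0.47 ± 0.14 (edgeR adjusted p = 0.0359). The strand setting of the counts is not given, so reads of the pair cannot be fully told apart.

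Nr1i2, which encodes PXR, the other broad xenobiotic sensor, was at 99.2, 98 and 105 CPM after 4 h and at 91.8, 122 and 112 CPM after 16 h. The groups overlapped and the interval of its log2 change ran from -0.16 to 0.37 (0.11 ± 0.12).

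In the group of steroid and estrogen-related receptors, Esrra rose and Esr1 and Nr3c2 did not pass. Esrra (ENSMUSG00000024955, chromosome 19, 6910977 to 6921813) encodes ERR alpha, a partner of PGC-1 coactivators that drives mitochondrial genes. It went from 32.8, 37.8 and 43.0 CPM to 46.0, 55.1 and 60.0 CPM, with the groups apart by a small margin (0.51 ± 0.13, edgeR adjusted p = 0.0228). Esrra no longer passed when 4 h replicate 1, 16 h replicate 2 or 16 h replicate 3 was left out (adjusted p by edgeR of 0.0666, 0.0868 and 0.109).

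Esr1, the estrogen receptor alpha gene, was at 10.4, 13 and 5.38 CPM after 4 h and at 13.2, 15.8 and 13.3 CPM after 16 h. All 16 h values were higher, and the lowest 4 h value came from the library with lung transcripts. It did not pass (0.56 ± 0.26, edgeR adjusted p = 0.162). It passed without 4 h replicate 2 (0.83, edgeR adjusted p = 0.0423) and when low-count genes were not removed (0.57, edgeR adjusted p = 0.00557). Without the library with lung transcripts the change was 0.29. With 13661 exon bases Esr1 belongs to the long genes that were low in that library, and the part of transcript length was not tested. Nr3c2, which encodes the mineralocorticoid receptor, was at 13.5 ± 2.56 and 12.6 ± 1 CPM (-0.10 ± 0.15).

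The RXR genes encode partners with which the PPARs, CAR and PXR, among others, bind DNA. Rxra was at 399, 415 and 414 CPM after 4 h and 455, 490.1 and 505 CPM after 16 h. Its groups did not overlap, but the change of 0.24 ± 0.10 did not pass (edgeR adjusted p = 0.129), with an interval from 0.01 to 0.46. Rxrb was near 38.2 ± 5.30 and 40.2 ± 3.80 CPM (0.07 ± 0.13) and Rxrg near 5.63 ± 0.574 and 5.42 ± 0.878 CPM (-0.05 ± 0.18). Of the 3, Rxra had by far the highest level per kilobase.

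The sterol and bile acid receptors did not pass. Nr1h4, which encodes the bile acid receptor FXR, was at 165, 137 and 185 CPM after 4 h and 178, 183 and 191 CPM after 16 h. Its groups overlapped (0.18 ± 0.12, edgeR adjusted p = 0.333), and it passed only without 4 h replicate 3 (0.29, edgeR adjusted p = 0.0487). Nr1h3, the gene of LXR alpha, an oxysterol receptor, was at 96.4 ± 12.7 and 89.5 ± 5.09 CPM (-0.11 ± 0.12). Nr1h2, the gene of the related LXR beta, was at 42.9 ± 4.12 and 46.2 ± 3.38 CPM (0.11 ± 0.11). The intervals of both LXR genes, -0.37 to 0.15 and -0.14 to 0.35, leave out changes of 1.5-fold or more.

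Nr0b2 encodes SHP, a receptor without a DNA-binding domain that FXR induces and that represses bile acid synthesis. It was at 20.5, 25.3 and 24.6 CPM after 4 h and 26.6, 23.9 and 36.6 CPM after 16 h, with overlap between the groups (0.32 ± 0.16, edgeR adjusted p = 0.193). Nr5a2, the gene of LRH-1, an activator of bile acid synthesis genes, was at 68.8, 74.1 and 47.7 CPM and then 73.3, 73.2 and 70.9 CPM. The single low value again came from the library with lung transcripts (0.19 ± 0.15, and 0.03 without it).

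Thyroid hormone receptors showed opposite signs without passing. Thrb, the main thyroid hormone receptor gene of hepatocytes, was at 37.0, 37.6 and 26.0 CPM after 4 h and 30.3, 29.0 and 26.0 CPM after 16 h (-0.24 ± 0.15, edgeR adjusted p = 0.275). Without 4 h replicate 3 it fell by 0.38 on the log2 scale (edgeR adjusted p = 0.0146). Thra was at 13.3, 19.2 and 14.1 CPM and then 16.9, 18.1 and 18.7 CPM (0.21 ± 0.15, edgeR adjusted p = 0.342). Thra shares 5.70% of its exon bases with Nr1d1 on the opposite strand, which fell by 1.07 ± 0.14.

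Among the retinoic acid receptor genes, Rara was at 24.1, 20.5 and 28.1 CPM after 4 h and 18, 18.3 and 21.4 CPM after 16 h (-0.33 ± 0.14, edgeR adjusted p = 0.112). Rarg was at 5.48, 4.70 and 5.17 CPM and then 4.45, 2.95 and 3.62 CPM, lower in all 16 h livers (-0.47 ± 0.20, edgeR adjusted p = 0.118). Rara and Rarg, with Pparg, were the 3 lower receptors at an unadjusted p under 0.05. Stellate and fibroblast markers fell in 2 of 8 cases and rose in 0 (median -0.39), beside 9.51% of all genes lower. Their part in the values of Rara and Rarg was not tested.

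Rora, a receptor that drives clock genes, was at 79.2, 76.2 and 77.0 CPM and then 83.9, 90.3 and 88.4 CPM, higher in all 16 h livers without passing (0.17 ± 0.10, edgeR adjusted p = 0.232). Nr4a1, an immediate-early receptor, was at 1.77, 2.96 and 2.66 CPM and then 2.27, 0.964 and 0.947 CPM. Its first 16 h liver was well above the other 16 h livers (-0.79 ± 0.37, edgeR adjusted p = 0.158). Without that liver Nr4a1 fell by 1.33 on the log2 scale (edgeR adjusted p = 0.0348), with only 16 and 23 counts in 16 h replicates 2 and 3. Nr6a1, an orphan receptor of germ cells and embryos, was near 11 ± 0.737 and 10.5 ± 1.45 CPM (-0.07 ± 0.14).

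**Figure D3:**
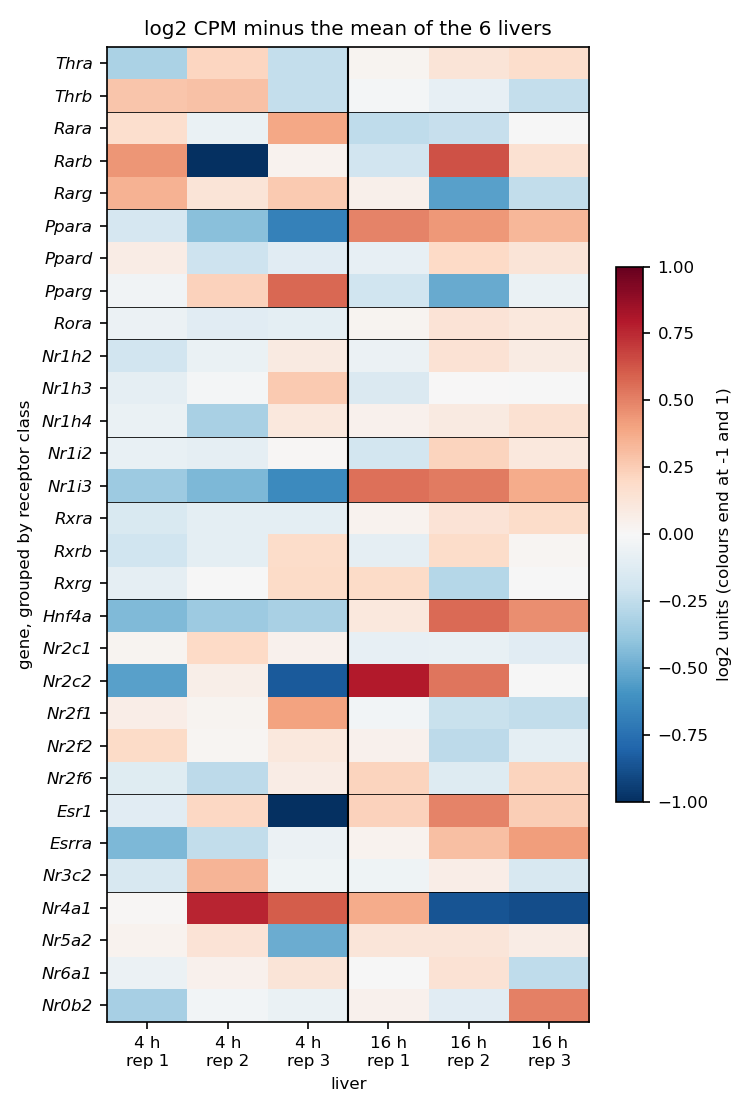
Log2 CPM of each receptor gene in each of the 6 livers, minus that gene's mean over the livers, with genes grouped by class and a line between the 4 h and 16 h livers. Ppara, Nr1i3 and Hnf4a are below their mean in all 4 h livers and above it in all 16 h livers, and Esr1 has its lowest value in 4 h replicate 3.

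Ratios between related genes compare receptors within 1 liver and do not depend on library scaling. The 9 pairs were chosen after values were seen, and 3 livers against 3 cannot give an exact permutation p below 0.1. The log2 ratio of Nr1i3 over Nr1i2 went from -2.03 ± 0.194 to -1.16 ± 0.265 (SD), higher in every 16 h liver. Ppara over Pparg went from 2.89 ± 0.559 to 4.24 ± 0.274, and Ppara over Ppard from 2.91 ± 0.199 to 3.59 ± 0.210. For Thra over Thrb the ratio moved from -1.11 ± 0.322 to -0.67 ± 0.183, also without overlap. The margin there was narrow, with 4 h replicate 3 at -0.886 and 16 h replicate 1 at -0.84. Nr1h3 over Nr1h2 was lower in every 16 h liver, by a small amount, at 1.16 ± 0.064 and 0.95 ± 0.035. Those 5 ratios, Hnf4a over Nr2f2 (3.66 ± 0.134 and 4.63 ± 0.386) and Ppargc1a over Ppargc1b separated the groups. Full separation fixes the two-sided exact permutation p at its smallest value of 0.1, or 0.129 adjusted over these 9. Since the pairs were picked from seen values, these p-values lend no support. Among single genes, 39.4% of all tested separated the groups, and no such share was computed for ratios. Ratios with Nr1i3, Ppara or Hnf4a on top carry the rises already given and are not separate results. Rara over Rarg and Rxra over Rxrb overlapped between groups (exact permutation p = 0.4 and 0.3).

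**Figure D4:**
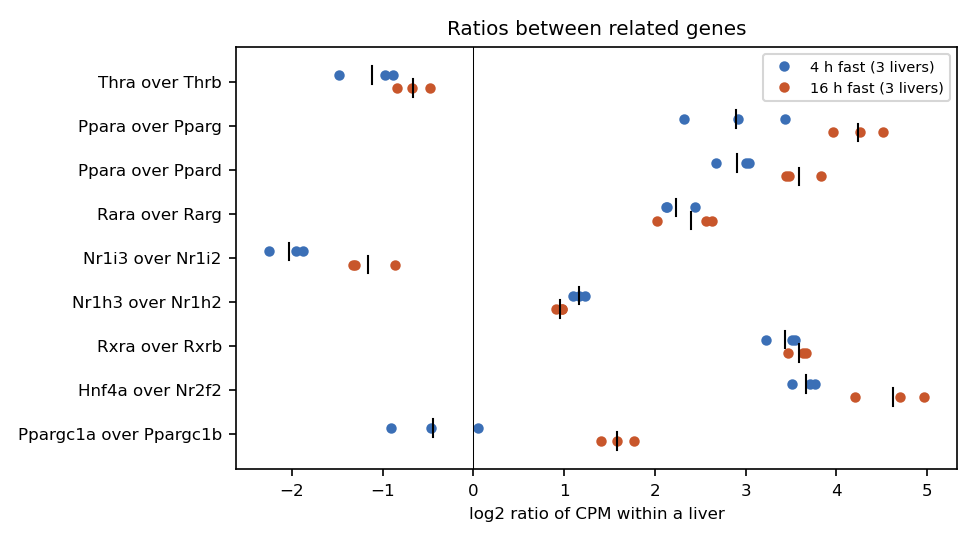
Log2 ratio of CPM between related genes within each liver, with dots for livers and short black lines for group means. The 4 h and 16 h livers separate for 7 of the 9 pairs, which were chosen after values were seen, most widely for Ppargc1a over Ppargc1b.

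Of 19 nuclear receptors outside the list, 8 had enough counts to be tested and 5 had no count in any library. Among the 8, 1 rose, 2 fell and 5 did not pass (37.5% called, beside 18.7% of all genes tested). Nr1d1, the gene of the clock repressor REV-ERB alpha, went from 122, 125 and 119.6 CPM to 45.1, 66.0 and 64.1 CPM (-1.07 ± 0.14, edgeR adjusted p = 4.86e-04). Nr1d2, its relative, fell by 0.49 ± 0.14, and missed the threshold when 4 h replicate 1 or 2 or 16 h replicate 1 or 3 was left out (adjusted p by edgeR of 0.0789 to 0.136). Esrrg, the ERR gamma gene, rose from 0.956, 1.03 and 0.992 CPM to 2, 3.80 and 3.25 CPM (1.59 ± 0.30, edgeR adjusted p = 0.00394). The glucocorticoid receptor gene Nr3c1 did not pass (-0.22 ± 0.11).

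Coregulators, the proteins through which receptors act, numbered 26 on the list, of which 7 rose, 1 fell and 18 missed the threshold (median 0.22). The share called was 30.8%, beside 18.7% of all genes tested. The PGC-1 genes, partners of PPAR alpha, ERR alpha and HNF4 alpha, moved in opposite directions. Ppargc1a was at 6.95, 12.5 and 8.30 CPM and then 15.3, 22.7 and 17.8 CPM (1.02 ± 0.22, edgeR adjusted p = 0.0096), and missed the threshold when 4 h replicate 3 was left out (adjusted p by edgeR of 0.0709). Ppargc1b was at 9.64, 12.1 and 15.6 CPM and then 5.74, 7.59 and 5.23 CPM (-1.01 ± 0.20, edgeR adjusted p = 0.00561). Their log2 ratio went from -0.44 ± 0.480 to 1.58 ± 0.178. The receptor corepressor gene Lcor rose by 0.81 ± 0.21. The 7 risers became 3 without 4 h replicate 1 or 16 h replicate 1, 1 and 2 without 16 h replicates 2 and 3, and 3 with plain library totals.

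Genes known as targets of the listed receptors were counted from lists, with 18.7% of all genes called as background. The lists share genes, and their main changes in these data were already known. Of 20 PPAR alpha targets 13 rose, 1 fell and 6 did not pass (median 0.92). The 3 with the smallest adjusted p by edgeR were Acot1, Cyp4a14 and Ehhadh, enzymes of fatty acid metabolism, at log2 fold changes of 2.76, 5.49 and 2.97. Among 16 CAR and PXR targets 8 rose, 2 fell and 6 did not pass (median 0.51). In that list Cyp2b10, the classic CAR target, rose by 3.5 ± 0.28, while Cyp2c55 fell by 3.04 and Cyp2c29 fell by 0.81. With no filter on low counts 4 fell. Of 12 ERR alpha targets 4 rose and 8 did not pass (median 0.15), with Acadm, a fatty acid oxidation enzyme, at 0.92, and Esrra itself is on the list. The 4 became 2 without 4 h replicate 1 or 16 h replicate 2 or 3, and 1 member fell by DESeq2, by limma-voom and without 4 h replicate 3.

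Of 14 HNF4 alpha targets 2 rose, 5 fell and 7 did not pass (median -0.15). The smallest adjusted p belonged to Pklr, the liver pyruvate kinase (-2.62), the transthyretin gene Ttr (-0.91) and the urea cycle gene Otc (-0.77). The 2 risers became 1 without 16 h replicate 1 and 0 without replicate 2, and the 5 that fell became 3 without any one 16 h liver.

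Of 10 tested genes on the FXR and SHP list 5 rose, 1 fell and 4 did not pass (median 0.29), with Cyp8b1 at 1.23, Abcb4 at 1.09 and Cyp7a1 at 1.60. Genes activated by FXR and genes repressed through SHP are mixed in this list, so its count and median have no single direction. The gene that fell was Abcb11, which FXR activates (-0.74 ± 0.15, edgeR adjusted p = 0.0056). Cyp7a1 and Cyp8b1 are genes that SHP is known to repress, while Nr0b2 did not pass. In the LXR list 2 of 12 genes rose and 3 fell (median -0.17), among them Srebf1 (-2.35) and Pltp (-1.22). Thyroid hormone receptor targets rose in 1 and fell in 3 of 10 cases, with Thrsp at -4.12, Fasn at -2.25 and Me1 at -0.91. The count that rose was 0 to 2 over the alternatives. Retinoic acid targets fell in 2 of 8 cases, among them Dhrs3 (-0.47), and in 1 without 16 h replicate 2 or 3. None of these 8 rose in the main edgeR fit. Under 7 alternatives 1 rose, among them DESeq2, limma-voom and other edgeR fits. LRH-1 targets rose in 2 of 7 tested cases (Cyp8b1 and Cyp7a1) and fell in 1. Both risers are also on the FXR and SHP list, and Cyp7a1 is on the LXR list too. The listed receptors Nr0b2 and Rarb are themselves on the LRH-1 and retinoic acid lists. Many targets answer to several regulators, so these counts describe the lists and not the activity of 1 receptor.

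**Figure D5:**
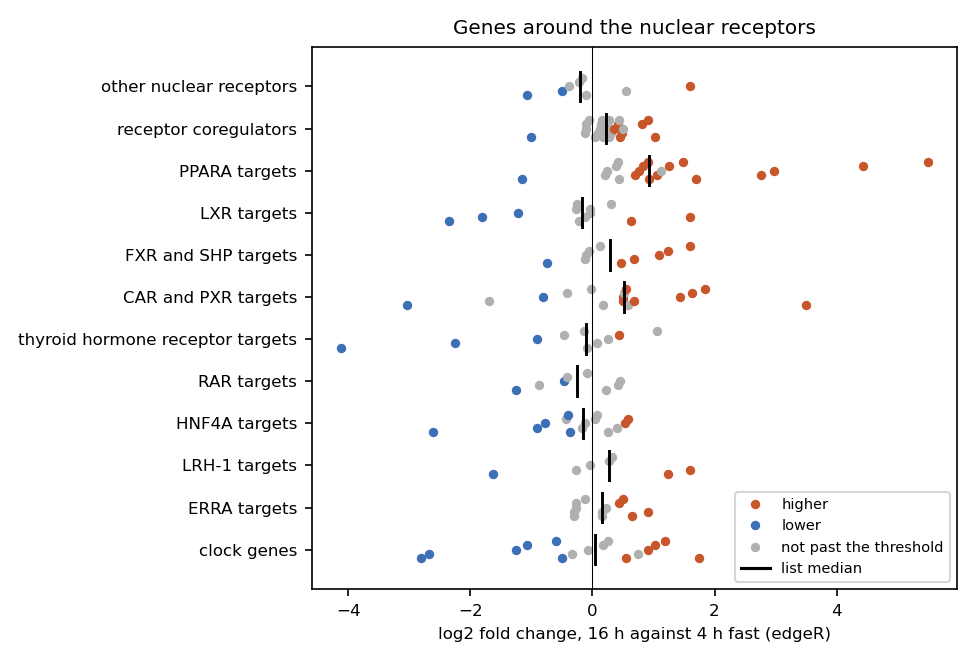
Log2 fold change, 16 h against 4 h fast, of the tested genes of each list around the receptors, with 1 dot per gene coloured by edgeR call and a black line for the list median. PPAR alpha targets lie furthest to the right with a median of 0.92, and HNF4 alpha targets have a median of -0.15.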

How the data were processed

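Liver RNA from 6 mice was sequenced, 1 library each. Trimming with Trimmomatic, checks with FastQC, alignment to GRCm38 (mm10) with STAR, counting with HTSeq and a DESeq2 comparison are named in the submitters' processing notes, without versions, annotation release or strand setting. The files deposited by the authors hold raw counts for each Ensembl gene, with no normalization. Symbols and exon lengths came from GENCODE M21, which held 99.41% of identifiers. Reads outside genes (6.44% to 7.14%) and ambiguous reads (5.78% to 6.60%) stayed out of library sizes.

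Genes kept by filterByExpr (13812, with 99.88% of counts) entered a robust quasi-likelihood fit in edgeR 4.0.16 (R 4.3.3) on fasting group, with TMM scaling, Benjamini-Hochberg adjustment over those genes and a threshold of 0.05. The procedure was run on simulated data with the same dispersion for every gene and planted changes of at least 2-fold. In the main fit no receptor changed that much, so the simulation does not cover the receptor changes. Ratios used exact permutation tests (scipy 1.17.1). Alternatives were DESeq2 1.42.0, limma-voom (limma 3.58.1), 2 other scalings, no filter, a replicate block and leaving out each liver. Libraries of a group differed beyond sampling noise (chi-square per degree of freedom 17.3 to 68.5), so none was merged. Counting error assumes independent molecules, which reads lacking molecular identifiers are not. P-values measure the spread between these livers only. All 30 receptors were named, and of each other list the 3 genes with the smallest adjusted p, with Ppargc1a, Nr1d1, Nr1d2 and Nr3c1 always allowed. A few genes this rule names are not reported here. Abcb11, Tomm40l, Ocel1 and Mrps25 were named after their values were seen. Members and lists were chosen with earlier results of these data known.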

Additional observations from a re-analysis of the deposited data

How the results depend on the processing

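The rises of Ppara, Nr1i3 and Hnf4a kept their direction and passed under all 12 alternatives. Leaving out each liver gave 3 to 6 higher and 0 to 1 lower receptors. For all genes called higher after 16 h it gave 671 to 1594, and for all genes called lower after 16 h 696 to 1393. Without 4 h replicate 1 or 16 h replicate 2 there were 3 higher receptors, and a lower one appeared without 4 h replicate 3 (Thrb) or 16 h replicate 1 (Nr4a1). With the replicate block 5 receptors were higher and 0 lower, against 1352 and 1396 of all genes. The numbers were not taken as pairs, since same-numbered libraries had correlated deviations of 0.045 to 0.093, although 5 of 6 correlated best with their own number, a hint from the data and not the design. Over the 12 alternatives 341 receptor estimates kept direction and call, 8 lost a call, 5 gained one and 6 changed sign with no call in either fit. Depth limits Rarb and Nr2f1, with at most 30 counts in a library, and Nr4a1, with 16 and 23 counts in 16 h replicates 2 and 3.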

Other observations

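Clock genes moved both ways beside the receptors. Of 16 listed, 5 rose, 6 fell and 5 did not pass, 68.8% in all, against 18.7% of all genes tested. Bhlhe41, a clock repressor gene, went from 8.50, 6.51 and 10.2 CPM to 0.667, 1.75 and 1.28 CPM (-2.81 ± 0.30, edgeR adjusted p = 1.23e-04). Nfil3, a repressor that opposes D-box activators, went from 23.2, 21.1 and 21.1 CPM to 54.3, 40.1 and 54.3 CPM (1.19 ± 0.13, edgeR adjusted p = 1.74e-04). The time of day at death is not in the labels, so fasting length and clock time cannot be told apart for Ppara, Nr1i3, Hnf4a or Esrra. The 5 clock risers became 3 without 16 h replicate 3.

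Transcript length moved with the contrast. The median log2 fold change was -0.20 over genes under 2000 exon bases and 0.10 over genes above 6000 bases, and -0.07 and 0.07 without 4 h replicate 3. The receptors that rose had 3836 to 14935 exon bases, and without that library Ppara, Nr1i3 and Hnf4a still passed at 0.71, 0.89 and 0.80, as did Esrra at 0.62. Nr2c2, the longest of the 5, did not pass without it (0.72, edgeR adjusted p = 0.0868).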
